A study of Mus musculus with 2 samples.

Results

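Integrin and laminin genes were examined in inguinal white fat of obese mice given entacapone, a drug used in Parkinson disease and known to inhibit the RNA demethylase FTO, and in the same depot of mice given vehicle. The set held every protein-coding gene whose symbol names an integrin alpha or beta subunit or a laminin chain, which gave 38 of the 37315 genes listed: 18 integrin alpha subunits, 9 integrin beta subunits and 11 laminin chains. Genes that only carry the prefix in their name, such as Itgb1bp1, Itgb3bp and Itgbl1, were left out. Each group was 1 RNA-seq library, 1 from entacapone-treated and 1 from vehicle-treated mice. Both came from male C57BL/6 mice aged 23 weeks with obesity from a high-fat diet, so obesity is shared by both groups and no lean group was analysed here. The labels used here state neither the dose nor how long the drug was given, nor how many mice went into a library.

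Integrins are cell surface receptors made of 1 alpha and 1 beta subunit, and the pair decides which ligand is bound. One branch, built on Itgb2 and on Itgb7, is carried by leukocytes and binds mainly counter-receptors on other cells. The other, built on Itgb1, Itgb4, Itgb5 and the partners of Itgav, holds cells to collagen, fibronectin and laminin. Laminins are trimers of 1 alpha, 1 beta and 1 gamma chain that form the sheet of every basement membrane, and in fat each adipocyte and each capillary is wrapped in one.

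The entacapone library held 12979673 counted reads and the vehicle library 13620056. Since neither group had a second library, no replicate error and no significance test exist, and each difference below separates these libraries and not the treatments. Ratios (entacapone over vehicle) are given on the log2 scale with an exact 95% interval that covers counting error only, and a gene was called different where that interval excluded 0. CPM are counts scaled to the effective library size. Adipocyte genes were abundant in both libraries (15 of 15 measured, summed level 62895 CPM with entacapone and 56977 CPM with vehicle), which fits the labelled tissue. Markers of other tissues were not equal between the libraries. Hepatocyte markers summed to 99.1 CPM with entacapone and 509 CPM with vehicle, skeletal muscle markers to 2290 CPM with entacapone and 1501 CPM with vehicle, and epithelial markers to 113 CPM with entacapone and 36.6 CPM with vehicle.

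Of the 38 genes, 32 had a mean of at least 1 CPM and were compared. Among these, 17 were lower and 6 higher beyond counting error in the entacapone library, while over all 13361 genes compared 21.1% were lower and 20.2% higher. The share of members that were lower (53.1%) was above that background, and the share that were higher (18.8%) was near it. By at least 2-fold, Itgad and Itgb2 were lower and 1 member was higher, against 3.5% of all genes lower and 1.66% higher by that size. The median log2 ratio was -0.08 over the 32 members and 0.00 over all genes compared. Members with many reads have narrow intervals, so a call on an abundant chain can rest on a very small difference.

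**Figure D1:**
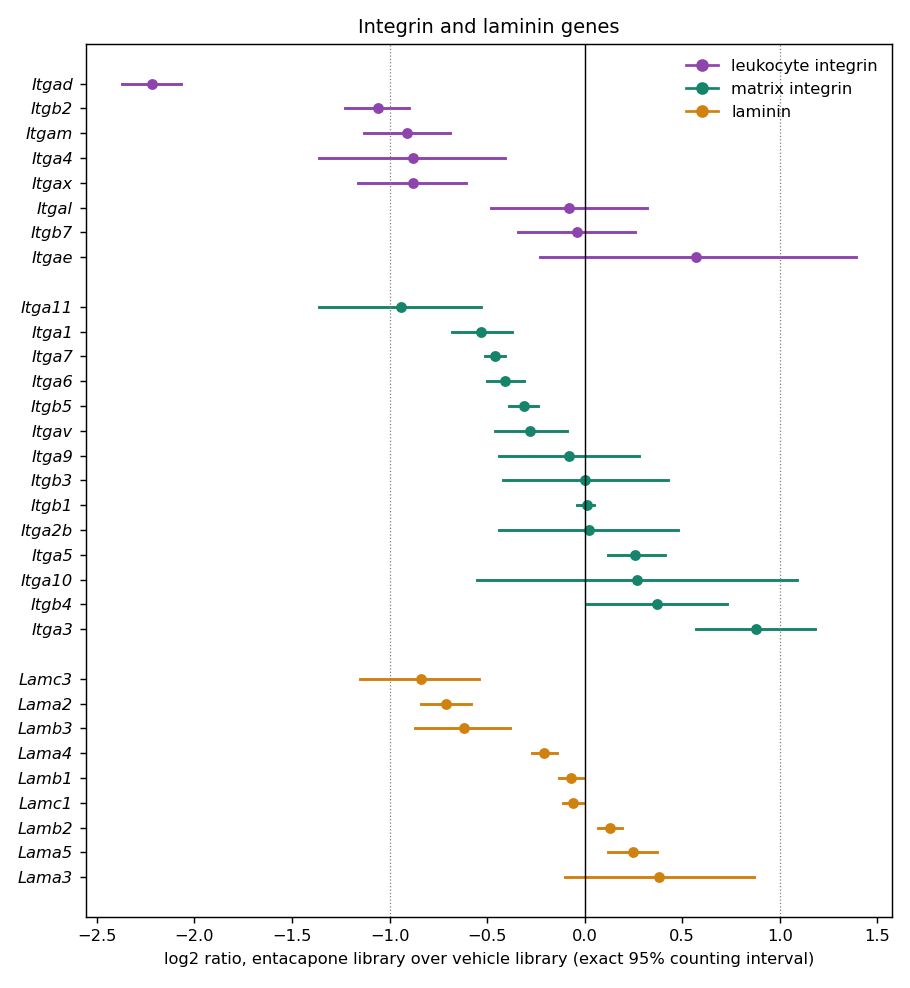
Log2 ratio (entacapone library over vehicle library, horizontal axis) of the integrin and laminin genes described here, one gene per line, with bars for exact 95% counting intervals and dotted lines at 2-fold. Itgad stands alone at -2.22, the other leukocyte genes lie between -1.06 and 0.57, and matrix integrins and laminins lie on both sides of 0.

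Leukocyte integrins were the lowest class. Itgb2, the beta subunit shared by all members of its branch, had 429 reads (33.5 CPM) with entacapone and 968 reads (70.1 CPM) with vehicle, which was 2.09-fold lower (log2 -1.06, -1.23 to -0.90). Of its 4 alpha partners, 3 were lower as well and 1 was within counting error. Itgad, the alpha D chain of macrophages, had 431 reads (33.7 CPM) with entacapone and 2160 reads (156 CPM) with vehicle, which was 4.64-fold lower (log2 -2.22, -2.37 to -2.07). Itgam, the complement receptor chain of macrophages and neutrophils, stood at 19.5 CPM with entacapone and 36.7 CPM with vehicle (-0.91, -1.13 to -0.69). Itgax, carried by dendritic cells and by macrophages of obese fat, stood at 13.2 CPM with entacapone and 24.3 CPM with vehicle (-0.88, -1.16 to -0.61). Itgal, the chain of the lymphocyte receptor for ICAM proteins, had 100 reads (7.81 CPM) with entacapone and 114 reads (8.25 CPM) with vehicle, a difference within counting error (-0.08, -0.48 to 0.32).

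The second leukocyte branch was split. Itgb7, the beta subunit that guides lymphocytes to the gut, stood at 13.9 CPM with entacapone and 14.3 CPM with vehicle (-0.04, -0.34 to 0.26). Its partner Itgae, which binds E-cadherin on epithelium, had 33 reads with entacapone and 24 with vehicle (0.57, -0.23 to 1.39). Its other partner Itga4, which also pairs with Itgb1 to bind VCAM1 and is found outside leukocytes too, was lower, with 58 reads (4.53 CPM) with entacapone and 115 reads (8.33 CPM) with vehicle (-0.88, -1.36 to -0.41). Itgb2l, a close relative of Itgb2, had no read in either library. Over the list, 5 of 8 compared genes were lower and 0 higher, with a median log2 ratio of -0.88. The share that were lower was 62.5%, against 21.1% over all genes compared.

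**Figure D2:**
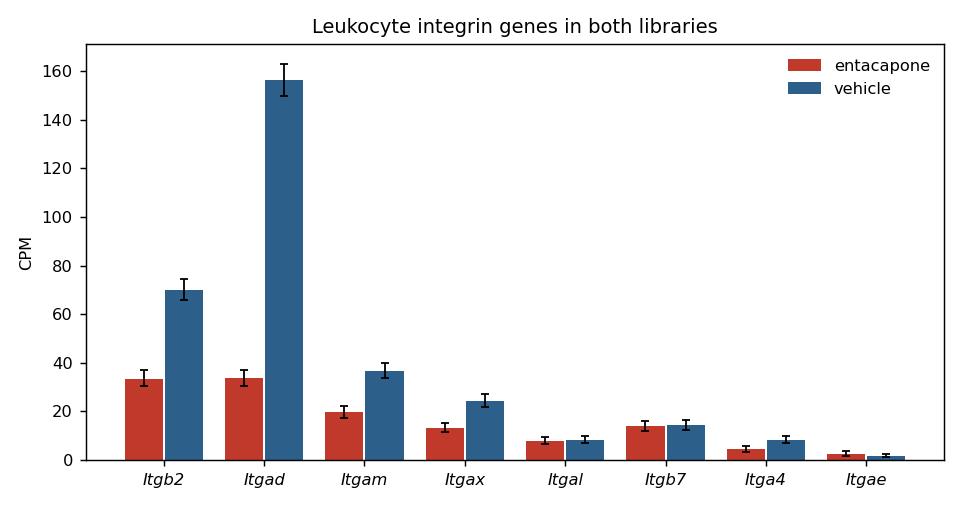
CPM (vertical axis) of the 8 leukocyte integrin genes compared, in the entacapone library (left bar of each pair) and the vehicle library (right bar), with exact 95% Poisson intervals for counting error. Bars are not scaled by gene length, so they compare the libraries within a gene: Itgad has 33.7 CPM with entacapone and 156 CPM with vehicle, and the Itgal and Itgb7 pairs have overlapping intervals.

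The difference in Itgad was larger than those of Itgb2, Itgam and Itgax beyond counting error. Set against Itgb2 as a ratio of ratios, Itgad was lower by a further log2 -1.15 (exact 95% interval -1.38 to -0.92), against Itgam by -1.30 (-1.57 to -1.03) and against Itgax by -1.33 (-1.65 to -1.02). Itgam and Itgax did not differ from each other beyond counting error (-0.03, -0.38 to 0.33), nor did either from Itgb2 (0.15, -0.13 to 0.43 for Itgam, and 0.18, -0.14 to 0.50 for Itgax). The lymphocyte chain Itgal lay above Itgb2 by 0.98 (0.55 to 1.42), and Itgb7 by 1.02 (0.67 to 1.36). Per kb of exon, Itgad took 48.8% of the summed level of the 4 alpha partners of Itgb2 with entacapone and 71.8% with vehicle. On the same scale, Itgad stood at 7.47 CPM per kb with entacapone, below Itgb2 at 10.98, and at 34.7 CPM per kb with vehicle, above Itgb2 at 23.0.

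Macrophage markers moved with these genes. Of 17 macrophage markers compared, 14 were lower and 1 higher (median -0.86, from -1.58 for Adgre1 to 1.01 for Mertk). Their summed level was 1012 CPM with entacapone and 1894 CPM with vehicle, with no marker at 0 in either library. Abundant markers such as Lyz2 (247 CPM with entacapone and 508 CPM with vehicle) weigh most in that sum. A comparison with the sum therefore need not hold for each marker. Against that sum, Itgb2 (-0.16, -0.33 to 0.01), Itgam (-0.01, -0.23 to 0.22), Itgax (0.02, -0.25 to 0.30) and Itga4 (0.03, -0.46 to 0.50) showed no difference beyond counting error. Itgad was still lower against it by -1.31 (-1.47 to -1.16), and Itgal (0.83, 0.42 to 1.23), Itgb7 (0.86, 0.56 to 1.16) and Itgae (1.47, 0.67 to 2.30) were higher against it. In whole tissue, fewer cells of a type and less RNA per cell cannot be told apart. T and NK cell markers summed to 39.8 CPM with entacapone and 34.9 CPM with vehicle, with 1 of 14 lower and 1 higher. B cell markers summed to 621 CPM with entacapone and 883 CPM with vehicle, with 1 of 8 lower and 1 higher (median 0.24). Most of that sum was Ighm, at 582 CPM with entacapone and 850 CPM with vehicle. Mast cell markers, which belong to another cell type that carries Itgb7, summed to 39.1 CPM with entacapone and 63.9 CPM with vehicle, with 4 of 7 lower. Neutrophil markers summed to 14.3 CPM with entacapone and 26.3 CPM with vehicle, with 3 of 3 compared lower. Their median was -1.08, or -0.39 with no filter on low counts, and the marker Ly6g was at 0 in both libraries. Dendritic cell markers summed to 34.8 CPM with entacapone and 37.1 CPM with vehicle, with 2 of 5 lower and 1 higher. The part of these cell types in the integrin values was not tested.

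Itgam, Itgax and Itgad are neighbours on mouse chromosome 7 (GENCODE M21, GRCm38). Itgam lies at 128062640 to 128118491, Itgax at 128129547 to 128150657 and Itgad at 128154376 to 128223816, all on the plus strand, so the 3 genes fill 161.2 kb with gaps of 11.1 and 3.72 kb. Within that span and 100 kb on either side, 8 other genes were compared, of which 0 were lower, 3 higher and 5 within counting error (log2 ratios from -0.27 to 0.90). Cox6a2, a cytochrome oxidase subunit of muscle whose exons overlap 70 bases of Itgad on the other strand, had 78 reads with entacapone and 81 with vehicle. The library kit does not mark the strand. Exons of Itgad in GENCODE M21 also overlap the pseudogene Gm17831 on the same strand over 330 bases (7.32%). On the other strand they overlap 4931431B13Rik over 388 bases (8.6%) and Gm39091 over 102 bases (2.26%). Exons of Itgam share 68.7% of their bases with Gm49368, a protein-coding gene annotated on the same strand. Of these genes, Cox6a2 alone is among the listed ones, so no reads were assigned to the others under these identifiers. Whether the unstated annotation held them under other identifiers is not known. Where in Itgam and Itgad the reads fall was not checked, so their counts keep some uncertainty.

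Of the 38 genes, 24 matched a promoter in RefSeq (GRCm38.p6). Itgad and Itgb2 were not among the 24, while Itgam and Itgax were. These promoters are shown because both genes were lower, with ratios that did not differ from each other beyond counting error, beside that of Itgb1, which was within counting error. Each line gives the 200 bases before the annotated start, 5′ to 3′ on the plus strand. Capitals mark GAGGAA on either strand (TTCCTC as read here), a core that ETS factors such as the myeloid regulator PU.1 can bind.
Itgam, chr7:128062440-128062639: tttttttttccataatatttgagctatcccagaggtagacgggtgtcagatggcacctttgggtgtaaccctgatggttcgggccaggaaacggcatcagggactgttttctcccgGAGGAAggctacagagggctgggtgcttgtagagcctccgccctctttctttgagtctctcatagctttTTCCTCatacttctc
Itgax, chr7:128129350-128129549: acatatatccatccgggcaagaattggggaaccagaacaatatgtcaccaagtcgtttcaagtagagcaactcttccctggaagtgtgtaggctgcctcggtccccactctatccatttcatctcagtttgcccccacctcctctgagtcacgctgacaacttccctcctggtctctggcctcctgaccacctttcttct
Itgb1, chr8:128685454-128685653: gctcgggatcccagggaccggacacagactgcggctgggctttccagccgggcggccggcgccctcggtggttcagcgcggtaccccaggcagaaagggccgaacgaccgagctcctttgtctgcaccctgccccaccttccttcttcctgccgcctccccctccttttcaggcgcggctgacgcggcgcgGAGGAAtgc
In the 250 bases searched, Itgam had 2 matches, 1 on the forward strand starting 84 bases before the start and 1 on the reverse strand from 15 bases before it. Itgax had 0 matches and Itgb1 had 1, from 9 bases before the start. Of 32851 promoters of this length in the table, 23.3% held at least 1 match, and 3.54% at least 2. Among the member genes with a promoter, 14 of 24 held 1 or more, including laminin genes. That count is by gene, and the 24 genes have 27 promoters, so it is not on the scale of the shares over all promoters. A match is only the presence of these letters.

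Matrix integrins had a median close to that of all genes, with single genes on both sides. Beyond counting error, 6 of 14 compared were lower and 3 were higher (median -0.04), none of them by 2-fold. These shares were 42.9% lower and 21.4% higher, against 21.1% and 20.2% over all genes compared. Itgb1, the beta subunit of most matrix receptors, had 7369 reads (576 CPM) with entacapone and 7924 reads (574 CPM) with vehicle, and its log2 ratio of 0.01 has an interval of -0.04 to 0.05 (-0.04 under total counts). This lies clear of the interval of Itgb2, the common subunit of the leukocyte branch.

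Among collagen receptors, Itga1, found on vessels and mesenchymal cells, stood at 43.5 CPM with entacapone and 62.8 CPM with vehicle (-0.53, -0.68 to -0.37). Itga11, a receptor of fibroblasts for fibrillar collagen, had 74 reads (5.78 CPM) with entacapone and 153 reads (11.1 CPM) with vehicle, the lowest matrix integrin at -0.94 (-1.36 to -0.53). Itga10, the collagen receptor of cartilage, was within counting error with 29 reads with entacapone and 26 with vehicle (0.27, -0.55 to 1.09). Exons of Itga10 share 33.5% of their bases with Gm42957, a protein-coding gene on the same strand that is not among the listed ones. The interval of the difference between Itga11 and Itga1 held 0 (-0.41, -0.86 to 0.03). Fibroblast and progenitor markers were lower in 14 of 15 and higher in 0 (median -0.69), with summed levels of 5363 CPM with entacapone and 8319 CPM with vehicle and none at 0. Their part in the values of Itga1 and Itga11 was not tested.

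Laminin receptors differed in direction. Itga7, a laminin receptor best known from muscle, was the most abundant alpha subunit per length in both libraries. It had 6053 reads (473 CPM) with entacapone and 8989 reads (651 CPM) with vehicle, 1.38-fold lower (-0.46, -0.51 to -0.41). Skeletal muscle markers were higher in 14 of 15 and lower in 0. Smooth muscle and pericyte markers were lower in 7 and higher in 2 of 11 (median -0.22). The part of either kind of muscle and of pericytes in the Itga7 value was not tested. Itga6, a laminin receptor of endothelium and epithelium, stood at 130 CPM with entacapone and 172 CPM with vehicle (-0.41, -0.50 to -0.31). Itga3, a laminin receptor of epithelium and vessels, was higher at 19.1 CPM with entacapone and 10.4 CPM with vehicle (0.88, 0.57 to 1.18), so that Itga3 and Itga6 differed by 1.28 (0.96 to 1.6). Itgb4, which pairs with Itga6 at hemidesmosomes, had 145 reads with entacapone and 121 with vehicle (0.37, 0.01 to 0.73), a call lost under total counts and under DESeq2 size factors. Epithelial markers were higher in 10 of 13 and lower in 0 (median 1.36), and endothelial markers were lower in 3 and higher in 5 of 14 (median 0.02). The part of epithelium in Itga3 and Itgb4 was not tested.

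Receptors for fibronectin and vitronectin were also split. Itga5, the fibronectin receptor chain, was higher at 66.1 CPM with entacapone and 55.1 CPM with vehicle (0.26, 0.12 to 0.41). Itgav, which pairs with several beta subunits, stood at 33.7 CPM with entacapone and 40.8 CPM with vehicle (-0.28, -0.46 to -0.09), and Itgb5, its partner in adipose cells, at 200.03 CPM with entacapone and 248 CPM with vehicle (-0.31, -0.39 to -0.24). Itgav and Itgb5 shared this shift within counting error (difference 0.03, -0.17 to 0.23), while Itga5 and Itgav differed by 0.54 (0.31 to 0.78). Itga2b and Itgb3, which form the fibrinogen receptor of platelets, were both within counting error. They had 79 and 92 reads with entacapone and 84 and 99 reads with vehicle. Their intervals were wide (0.02, -0.44 to 0.48 for Itga2b, and 0.00, -0.42 to 0.43 for Itgb3). Of 8 platelet markers, only 1 was high enough to be compared. Itga9, a receptor for tenascin and VCAM1, was within counting error (-0.08, -0.44 to 0.28). The 4 matrix integrins under 1 CPM were Itga2 with 7 reads with entacapone and 5 with vehicle, Itga8 with 8 with entacapone and 12 with vehicle, Itgb6 with 6 with entacapone and 3 with vehicle, and Itgb8 with 3 with entacapone and 10 with vehicle. None of these was beyond counting error, and only large differences would be seen at this depth.

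Leukocyte genes took 7.51% of all integrin reads with entacapone (exact binomial 95% interval 7.17 to 7.87) and 14.7% with vehicle (14.3 to 15.1). Relative to matrix integrins, leukocyte integrin reads were 2.12-fold lower in the entacapone library (log2 -1.08, -1.17 to -1.0). Without Itgad, an alternative added after seeing the data, the shares were 5.66% with entacapone and 8.09% with vehicle, and the difference from matrix integrins was -0.55 (-0.66 to -0.45). Summed over each class, leukocyte integrins reached 129 CPM with entacapone and 320.1 CPM with vehicle, and matrix integrins 1585 CPM with entacapone and 1861 CPM with vehicle.

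**Figure D3:**
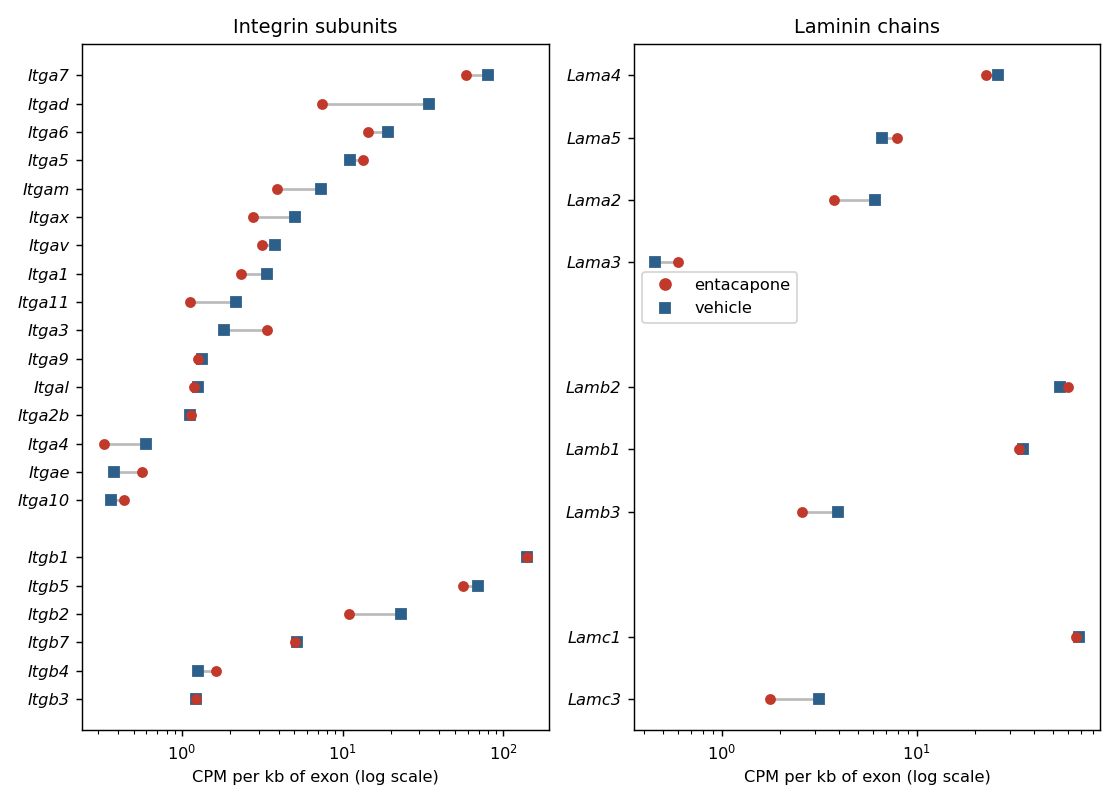
CPM per kb of exon (horizontal axis, log scale) of the integrin subunits (left panel, alpha above beta) and laminin chains (right panel, alpha, beta and gamma from top to bottom) described here, with circles for the entacapone and squares for the vehicle library. Itgb1 and Itga7 lead the integrins and Lamc1 and Lamb2 the laminins in both libraries, and Itgad shows the widest gap.

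Levels per length put the receptors in order. Per kb of exon, Itgb1 made up 65.2% of all beta subunit signal with entacapone and 58.3% with vehicle, followed by Itgb5 at 26% with entacapone and 29% with vehicle. Itga7 made up 50.7% of all alpha subunit signal with entacapone and 46.2% with vehicle. With entacapone, Itga6 (12.5%) and Itga5 (11.6%) came next, and with vehicle Itgad was second at 19.9%, ahead of Itga6 (10.9%) and Itga5 (6.42%). These shares depend on the length assigned to a gene, and with the longest coding transcript in place of all exons Itga7 took 59.2% with entacapone and 56% with vehicle. By that length Itgad (13.2%) came behind Itga6 (13.8%) with vehicle.

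Laminin chains also lay on both sides of 0. Beyond counting error, 6 of 10 compared were lower and 3 were higher (median -0.06). These shares were 60% lower and 30% higher, against 21.1% and 20.2% over all genes compared. The total over all chains was 1707 CPM with entacapone and 1792 CPM with vehicle. The chains of the main trimer of fat and capillaries differed little. Lama4, the alpha chain of endothelial and adipocyte basement membrane, stood at 275 CPM with entacapone and 317 CPM with vehicle (-0.21, -0.27 to -0.14). Lamb1 stood at 332 CPM with entacapone and 348 CPM with vehicle (-0.07, -0.13 to -0.01) and Lamc1, the gamma chain of most laminins, at 542 CPM with entacapone and 565 CPM with vehicle (-0.06, -0.11 to -0.01). The calls on Lamb1 and Lamc1 were lost under upper-quartile scaling, with intervals of -0.12 to 0.00 and -0.09 to 0.00. Lamb1 and Lamc1 did not differ from each other beyond counting error (-0.01, -0.09 to 0.07), and Lama4 lay slightly below Lamc1 (-0.15, -0.23 to -0.07).

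Other alpha chains shifted against Lama4. Lama2, the alpha chain of muscle and nerve laminin that mesenchymal cells also make, had 785 reads (61.3 CPM) with entacapone and 1388 reads (100.5 CPM) with vehicle (-0.71, -0.84 to -0.58). Lama5, the alpha chain of mature vessels and epithelia, was higher at 89.9 CPM with entacapone and 75.8 CPM with vehicle (0.25, 0.12 to 0.37). Against Lama4, Lama2 was lower by -0.51 (-0.65 to -0.36) and Lama5 higher by 0.45 (0.31 to 0.59). Lamb2, a beta chain of vessel and muscle laminins, was also higher at 363 CPM with entacapone and 331 CPM with vehicle (0.13, 0.07 to 0.19), 0.20 above Lamb1 (0.12 to 0.29). Skeletal muscle markers were higher, and Schwann cell markers were lower in 2 and higher in 2 of 8 (median -0.23). The part of muscle, Schwann cells and fibroblasts in the Lama2 value was not tested.

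Lama3 and Lamb3 are the alpha and beta chains of an epithelial laminin that anchors skin and glands through Itga6 and Itgb4. Lama3 had 82 reads with entacapone and 68 with vehicle, within counting error (0.38, -0.10 to 0.87). Lamb3 was lower, with 218 reads (17.0 CPM) with entacapone and 362 reads (26.2 CPM) with vehicle (-0.62, -0.87 to -0.38). Lama3 and Lamb3 differed by 1.0 (0.45 to 1.55). Of 13 epithelial markers, 10 were higher in the entacapone library, and the part of epithelium in the Lama3 and Lamb3 values was not tested. Lamc3, a gamma chain of nerve and other basement membranes, had 138 reads with entacapone and 267 with vehicle (-0.84, -1.15 to -0.54). Lama1, the alpha chain of embryonic basement membrane, had 2 reads with entacapone and 0 with vehicle, both under a floor of 3 counts.

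**Figure D4:**
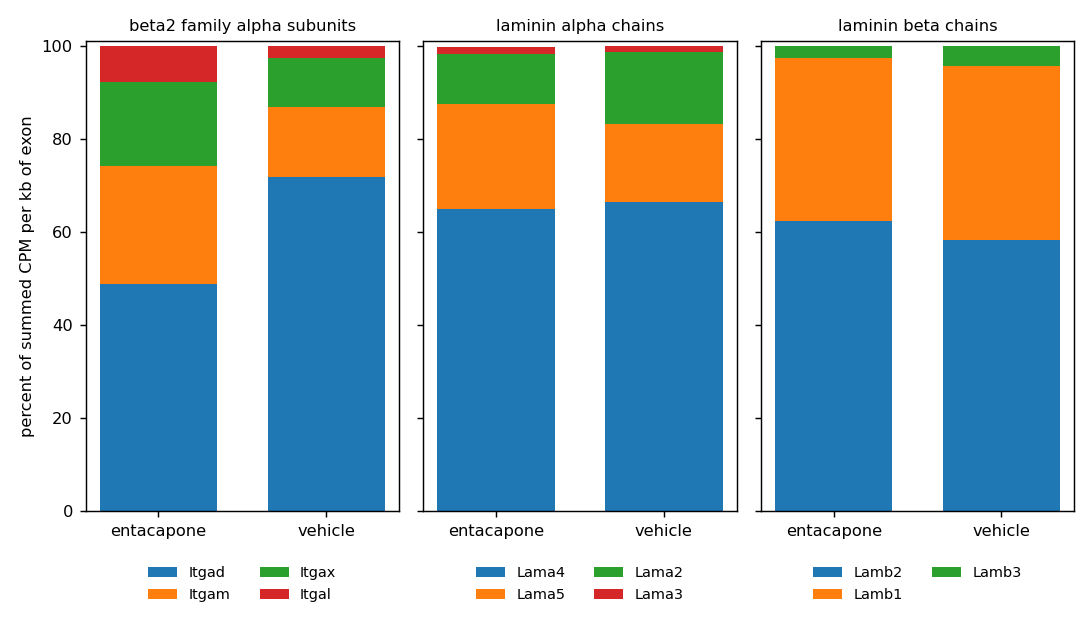
Share of summed CPM per kb of exon (vertical axis, percent) taken by each alpha partner of Itgb2 and by each laminin alpha and beta chain over 1 CPM, with the entacapone library left and the vehicle library right in each panel. Itgad takes 48.8% with entacapone and 71.8% with vehicle, while Lama4 and Lamb2 lead their panels in both libraries.

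Per kb of exon, laminin alpha chains summed to 35.05 with entacapone and 39.5 with vehicle, beta chains to 95.6 with entacapone and 93.4 with vehicle, and gamma chains to 68.6 with entacapone and 72.1 with vehicle, all in CPM per kb. Lama4 made up 65.0% of the alpha chains with entacapone and 66.4% with vehicle. Lama5 followed with 22.5% and Lama2 with 10.7% with entacapone, and Lama5 with 16.8% and Lama2 with 15.6% with vehicle. By the longest coding transcript, Lama5 (13.1%) led Lama2 (10.6%) with entacapone and Lama2 (14.9%) led Lama5 (9.51%) with vehicle. Lamc1 made up 95.6% of the gamma chains with entacapone and 94.7% with vehicle. Lamb2 led the beta chains at 62.4% with entacapone and 58.2% with vehicle, but with the longest coding transcript as length it led only with entacapone (51.4% against 45.8% for Lamb1), and Lamb1 led with vehicle (48.4% against 47.3% for Lamb2).

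Among other basement membrane genes whose products assemble with laminins, 10 of 14 compared were lower beyond counting error and 0 were higher (median -0.29). The collagen chains Col4a5 (-0.91, -1.29 to -0.54) and Col4a4 (-0.66, -1.36 to 0.02) were lowest, and Agrn, a heparan sulfate proteoglycan (-0.05), and Nid2, a nidogen (-0.11), were highest. Nid1, the nidogen that links laminin to collagen, stood at 1074 CPM with entacapone and 1385 CPM with vehicle (-0.37, -0.40 to -0.34). Ligands of integrins outside the laminins went both ways, with 6 lower and 4 higher of 12 compared (median -0.36, or -0.10 with no filter on low counts). Fibronectin (Fn1, -1.27, -1.33 to -1.20) and Ccn3 (-1.0, -1.54 to -0.47) were lowest, and the matricellular genes Ccn1 (1.54, 1.47 to 1.61) and Thbs1 (0.76) highest. Fn1 and its receptor chain Itga5 lay on opposite sides of 0. Hepatocyte markers were lower in 19 of 19 compared, and fibroblast and progenitor markers in 14 of 15. The part of these cell types in the Fn1 value was not tested.

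Other laminin receptors were lower in 7 and higher in 3 of 13 (median -0.10). Dmd, which encodes dystrophin, had 136 reads with entacapone and 228 with vehicle (-0.64, -0.95 to -0.32). Sgca, a muscle sarcoglycan, was higher with 28 reads with entacapone and 11 with vehicle (1.46, 0.41 to 2.61). The syndecan Sdc4 was higher as well with 2677 reads with entacapone and 1031 with vehicle (1.49, 1.38 to 1.59). Dag1, the dystroglycan receptor itself, stood at 218 CPM with entacapone and 233 CPM with vehicle (-0.10, -0.17 to -0.02).

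Inside the cell, the adhesion machinery that couples integrins to actin was higher in 10 and lower in 6 of 22 (median 0.09). The tensin Tns2 (0.37, 0.31 to 0.43) and Zyx (0.33), a focal adhesion protein, were highest, and Kank2 (-0.70, -0.84 to -0.56) and Lims1 (-0.35), an adaptor of integrin-linked kinase, were lowest. Genes tied to the activation of leukocyte integrins, in either direction, were lower in 4 and higher in 0 of 11 (median -0.16). The adaptor Fyb (-0.90, -1.35 to -0.46) and Fermt3, the kindlin of blood cells (-0.69, -0.94 to -0.45), were lowest, and Parvg (0.19) and Cyth1 (0.10) highest and within counting error. The kindlin of other cells, Fermt2, was higher by a little (0.13, 0.07 to 0.20). Counter-receptors of leukocyte integrins were mostly level, with 1 lower and 2 higher of 8 (median 0.15). Vcam1 (-0.08) and Thy1 (-0.47, -0.63 to -0.30), which is also a fibroblast marker, were lowest. Cdh1, the ligand of Itgae and also an epithelial marker (1.5, 0.54 to 2.54, with 34 reads with entacapone and 13 with vehicle), and Icam2 (0.25, -0.02 to 0.52) were highest.

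**Figure D5:**
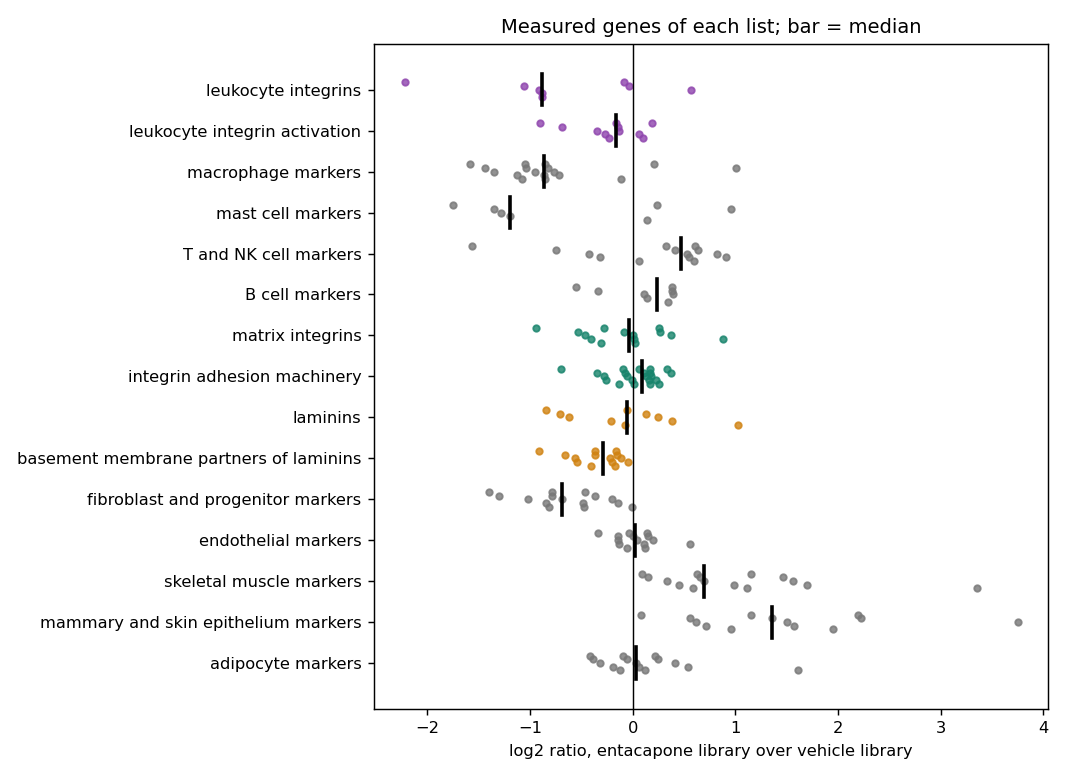
Log2 ratio (entacapone library over vehicle library, horizontal axis) of the compared genes of 15 lists, one point per gene, with a black bar at each median. Leukocyte integrins (median -0.88) lie with macrophage markers (-0.86), and matrix integrins (-0.04) and laminins (-0.06) lie near 0, between the fibroblast (-0.69) and epithelial (1.36) markers.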

How the data were processed

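The authors deposited raw read counts per mouse Ensembl gene, 1 file without a header for each library. TRIzol extraction was followed by poly(A) purification, per the labels' protocols, and TruSeq RNA v2 libraries, which do not mark strand, were read at 101 bp. The submitters' processing notes name TopHat2 2.1.1, HTSeq 0.6.0 and mm10 (the GRCm38 assembly). Annotation release, counting mode and any pooling of mice are not stated in these sources.

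Of 37315 listed genes, 35533 matched GENCODE M21, which gave symbols, positions and exon lengths. The 1782 others held 0.188% of entacapone and 0.181% of vehicle counts and stayed in the library sizes. CPM used TMM effective library sizes from edgeR 4.0.16 (factors 0.986 for entacapone and 1.01 for vehicle). A gene's reads were split by library, and the exact binomial (Clopper-Pearson) bounds of the split gave the bounds of its ratio. Intervals of a difference between 2 genes come from the exact conditional odds ratio. Interval code was tested on simulated data. Reads carry no molecular identifiers, so intervals and floors cover counting error only. Levels between genes were compared per kb of exon, with the length of the longest coding transcript as an alternative; shares of a whole class in integrin reads are also given as reads. The members and lists were chosen with earlier results of these data known. All members could be named, and of each partner list the 2 highest and 2 lowest compared genes, but some genes that this rule took are not reported here. Other partner genes were named after their values were seen (Nid1, Dag1 and Fermt2). Scaling by DESeq2 1.42.0 size factors, by total counts or by the upper quartile was tried, as were other filters, a pseudocount, a thinned vehicle library, removal of a trend with exon length and leaving out Itgad, the last added after seeing the data.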

Additional observations from a re-analysis of the deposited data

How the results depend on the processing

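No member called different changed direction, and none of the 32 compared left its counting interval, under 3 other scalings, a pseudocount of 2 CPM, the thinned vehicle library or removal of the trend with exon length. Values near 0 changed sign: under total counts Itgb1 stood at -0.04, Itgb3 at -0.04 and Itga2b at -0.02. Other scalings moved the median of all genes by -0.04 to 0.01 (log2). Calls on Itgb4, Lamb1 and Lamc1 lay at the edge of counting error: Itgb4 was also lost in the thinned library, and Lamb1 and Lamc1 with the length trend removed. The count of members at least 2-fold higher, 1, was 0 under total counts, with the pseudocount and with the thinned library. At 1.5-fold in place of 2-fold, 9 members were lower and 2 higher. The leukocyte share of integrin reads was 6.29% with entacapone and 13.6% with vehicle for the Itgb2 branch alone, 9.7% with entacapone and 18.6% with vehicle per kb of exon, and 5.66% with entacapone and 8.09% with vehicle without Itgad. With the longest coding transcript as length, Itga7 made up 59.2% of alpha subunits with entacapone and 56% with vehicle, Lama4 75.3% of alpha chains with entacapone and 74.9% with vehicle, Lamb2 51.4% of beta chains with entacapone and 47.3% with vehicle, and Lamc1 94.9% of gamma chains with entacapone. Of the partner and marker lists, the median of the laminin gamma chains turned to a mean of 0.04, and that of the adipocyte markers to -0.01 under total counts. Of 252 values over 28 such lists, 20 others left the counting interval of the list's median. With no filter on low counts the median of other integrin ligands was -0.10 (-0.36 with the filter), of neutrophil markers -0.39 (-1.08), of platelet markers -0.15 (-0.39), of collagen-binding alpha subunits -0.13 (-0.53) and of laminin alpha chains -0.21 (0.02). The mean of the laminin-binding alpha subunits was 0.00 (median -0.41). No paired analysis was possible because each group held 1 library. The genes under 1 CPM, Itgae and Itga10 were limited by depth.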

Other observations

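The genes that share the prefix but encode no integrin subunit were also read. Itgbl1, which encodes a secreted protein with integrin-like repeats, had 147 reads (11.5 CPM) in the entacapone library and 315 reads (22.8 CPM) in the vehicle library, a log2 ratio of -0.99 (-1.28 to -0.70). The binding proteins of integrin tails did not differ beyond counting error, with Itgb1bp1 at 53.4 CPM with entacapone and 55.6 CPM with vehicle (-0.06, -0.21 to 0.09). Itgb1bp2, a muscle protein, had 24 reads with entacapone and 27 with vehicle (-0.06, -0.92 to 0.79). Itgb3bp, a centromere protein, had 35 reads in each library (0.11, -0.61 to 0.83).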
